A study of Mus musculus with 12 samples.

Results

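Non-fibrillar collagens were measured in primary mouse adult fibroblasts (MAFs) exposed to thymol. The 10 listed genes were Col4a1, Col4a2, Col6a1, Col6a2, Col6a3, Col8a1, Col12a1, Col15a1, Col16a1 and Col18a1, chosen by name as basement membrane or other non-fibrillar collagens and looked up by symbol in the table. Of these, 9 were among the 10697 genes analysed, and Col15a1 was not analysed here. MAFs from C57BL6/j mice of WT genotype, grown out of cut biopsies on coated dishes, received 100 µM thymol (6 libraries) or an equal volume of the solvent DMSO (6 libraries) for 24 h, and carried no other treatment or allele in the labels. Age was given only as adult. RNA was read by QuantSeq 3′ mRNA sequencing, which takes about 1 read from the 3′ end of each polyadenylated transcript, so levels are given in log2 CPM (a gene's reads scaled to a common library total, on a log2 scale) and can be set side by side between genes without a length term. The labels number the libraries but do not tie them to separate animals or cultures, so p-values measure the spread between these libraries, which may be technical.

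Collagens are trimers of chains wound into a triple helix. Those of the fibrillar class pack into the banded fibres of connective tissue, whereas non-fibrillar collagens form networks, filaments or links on fibre surfaces. Collagen IV, built in most tissues from the chains of Col4a1 and Col4a2, is the scaffold of basement membranes. Collagen VI, built from the chains of Col6a1, Col6a2 and Col6a3, forms beaded filaments around cells and is a major product of fibroblasts. Collagen VIII forms hexagonal networks, collagens XII and XVI are fibril-associated collagens that decorate fibre surfaces, and collagens XV and XVIII carry glycosaminoglycan chains in basement membrane zones. Cleavage of collagen XVIII releases endostatin, an inhibitor of vessel growth.

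Promoters are shown for the gene pair that shares one and for 2 collagen VI chains that were compared with each other. In the GENCODE annotation of GRCm38, Col4a1 lies on the minus strand of chromosome 8 (chr8:11198423-11312826) and Col4a2 on the plus strand (chr8:11312805-11449287), so that the genes stand head to head and overlap by 22 bases at their starts. Their 3′ ends, where QuantSeq reads fall, lie at the far ends of the pair. Col6a1 (chr10:76708792-76726168) and Col6a2 (chr10:76595762-76623630) lie on the minus strand of chromosome 10 with 85161 bases between them, and Col18a1 (chr10:77052178-77166548) follows 326009 bases further along on the same strand. Col6a3 (chr1:90765923-90843971) is on the minus strand of chromosome 1. RefSeq windows of 250 bases before and 50 bases from the start on (GRCm38.p6, 5′ to 3′ on the gene's own strand) were found for 9 of the 10 listed genes, with Col12a1 the gene unmatched. The windows below run over chr8:11312555-11312854 (plus), chr10:76725995-76726294 (minus) and chr1:90843922-90844221 (minus). Capitals mark matches, on either strand, to 5 words: CCAAT (the CCAAT box), GGGCGG (the GC box), CCCTCCCC (a pyrimidine-rich word), TGACTCA (the AP-1 word) and TATAAA (the TATA box).
Col4a2, holding the starts of both collagen IV genes: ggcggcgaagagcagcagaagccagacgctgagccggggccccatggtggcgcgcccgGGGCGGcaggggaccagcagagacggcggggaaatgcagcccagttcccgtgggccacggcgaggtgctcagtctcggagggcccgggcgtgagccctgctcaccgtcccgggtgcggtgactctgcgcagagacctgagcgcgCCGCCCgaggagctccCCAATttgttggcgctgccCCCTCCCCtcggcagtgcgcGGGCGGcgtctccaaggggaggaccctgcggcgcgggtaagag
Col6a1: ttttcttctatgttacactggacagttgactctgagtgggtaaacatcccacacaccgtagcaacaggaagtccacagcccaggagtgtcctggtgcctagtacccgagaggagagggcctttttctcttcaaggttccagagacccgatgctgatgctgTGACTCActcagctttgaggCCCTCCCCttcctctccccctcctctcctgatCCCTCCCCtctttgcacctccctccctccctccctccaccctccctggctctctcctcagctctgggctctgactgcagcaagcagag
Col6a3: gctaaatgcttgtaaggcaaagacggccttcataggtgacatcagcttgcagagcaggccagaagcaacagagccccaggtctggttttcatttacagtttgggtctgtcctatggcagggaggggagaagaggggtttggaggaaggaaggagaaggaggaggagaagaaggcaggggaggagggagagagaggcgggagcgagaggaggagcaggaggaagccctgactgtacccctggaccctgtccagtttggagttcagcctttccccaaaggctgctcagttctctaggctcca
The Col4a2 window held 5 matches and was 73.7% G or C, against a median of 52.7% over 32851 promoter windows. It holds the Col4a1 start, but most of it lies inside the Col4a1 gene. The Col6a1 window held 3 matches at 57.3% G or C, and the Col6a3 window held 0 at 56.3%. CCCTCCCC was found for 5 of the 9 genes (Col4a1, Col4a2, Col6a1, Col6a2 and Col8a1) and in 10.8% of all windows. GGGCGG was found for 6 of 9 and in 35.7% of windows, CCAAT for 4 of 9 and in 37.4%, TGACTCA for 1 of 9 (Col6a1) and in 5.2%, and TATAAA for 0 of 9 and in 13.6%. The 9 genes had 11 windows, so a count of genes and a share of windows are not the same measure. Col4a1 and Col4a2 start in the same stretch, and their matches may be the same letters. A match describes letters in the window and shows no binding.

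Recovered depth was 6240828 to 8064382 reads in DMSO and 5435985 to 9049796 in thymol libraries (difference of means, exact two-sided permutation p = 0.396). Markers of fibroblasts were present for 12 of 13 listed genes, with a summed level of 13860 to 14920 CPM in DMSO and 12950 to 13590 CPM in thymol. Without the collagens among them the ranges were 6361 to 6900 and 6262 to 6899 CPM. All 13 macrophage markers were also present, at 16590 to 18400 CPM in DMSO and 16720 to 20100 CPM in thymol, so the libraries held transcripts of both lists. Pericyte and smooth muscle markers were analysed for 6 of 10 genes, without Rgs5, Kcnj8, Abcc9 and Notch3. The 6 were Mcam, Acta2, Myh11, Cnn1, Tagln and Des, and summed to 10340 to 11760 CPM in DMSO and 8169 to 11740 CPM in thymol. At an adjusted p under 0.05 (limma) 1 of the 6 was lower with thymol and 0 higher, beside 1.57% and 0.654% of all genes. The endothelial list, a cell type known for collagens IV, XV and XVIII, summed to 5.39 to 9.77 CPM in DMSO and 5.58 to 9.22 CPM in thymol, and Pecam1, Kdr, Tek and Tie1 were not among the genes analysed. Of the epithelial markers 0 of 8 were analysed. Skeletal muscle markers were represented by 1 of 8 genes, Acta1 (126 to 150 CPM in DMSO, 87.2 to 113 CPM in thymol). Acta1 was lower at the same threshold, and Myod1, Myog and Ckm were not among the genes analysed. Adipocyte markers were represented by 1 of 6, Fabp4 (75.2 to 91.8 and 89.5 to 110 CPM), without Adipoq, Plin1 and Pparg. Schwann markers were represented by 1 of 6, Mbp (28.5 to 46.1 and 22.7 to 31.4 CPM), and neither Fabp4 nor Mbp passed. The part of cell makeup in the collagen results was not tested, and in bulk libraries fewer cells of a type and less RNA per cell cannot be told apart.

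Collagen IV gave most of the reads of the family. In DMSO the mean level fell in the order Col4a1, Col4a2, Col8a1, Col12a1, Col6a3, Col16a1, Col6a1, Col6a2 and Col18a1, from 9.62 ± 0.04 to 3.75 ± 0.27 log2 CPM (SD, n = 6). Neighbours in this order did not overlap, except Col16a1 and Col6a1, which differed by 0.14 log2 units with an SD of 0.14 and kept the order in 4 of 6 libraries. Together the 9 genes took 0.208% ± 0.006 of the reads in DMSO and 0.190% ± 0.009 in thymol (SD, n = 6), with libraries from 0.196% to 0.213% and from 0.180% to 0.203%. The chains of collagen IV made up 59.2% ± 0.3 of these reads in DMSO and 58.7% ± 1.6 in thymol. Collagen VI made up 11.6% ± 0.3 and 11.6% ± 0.9, and Col8a1 with Col12a1 25.3% ± 0.7 and 25.2% ± 1.4. Each of these shares of the family's reads differed between the groups by less than the larger SD.

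**Figure D1:**
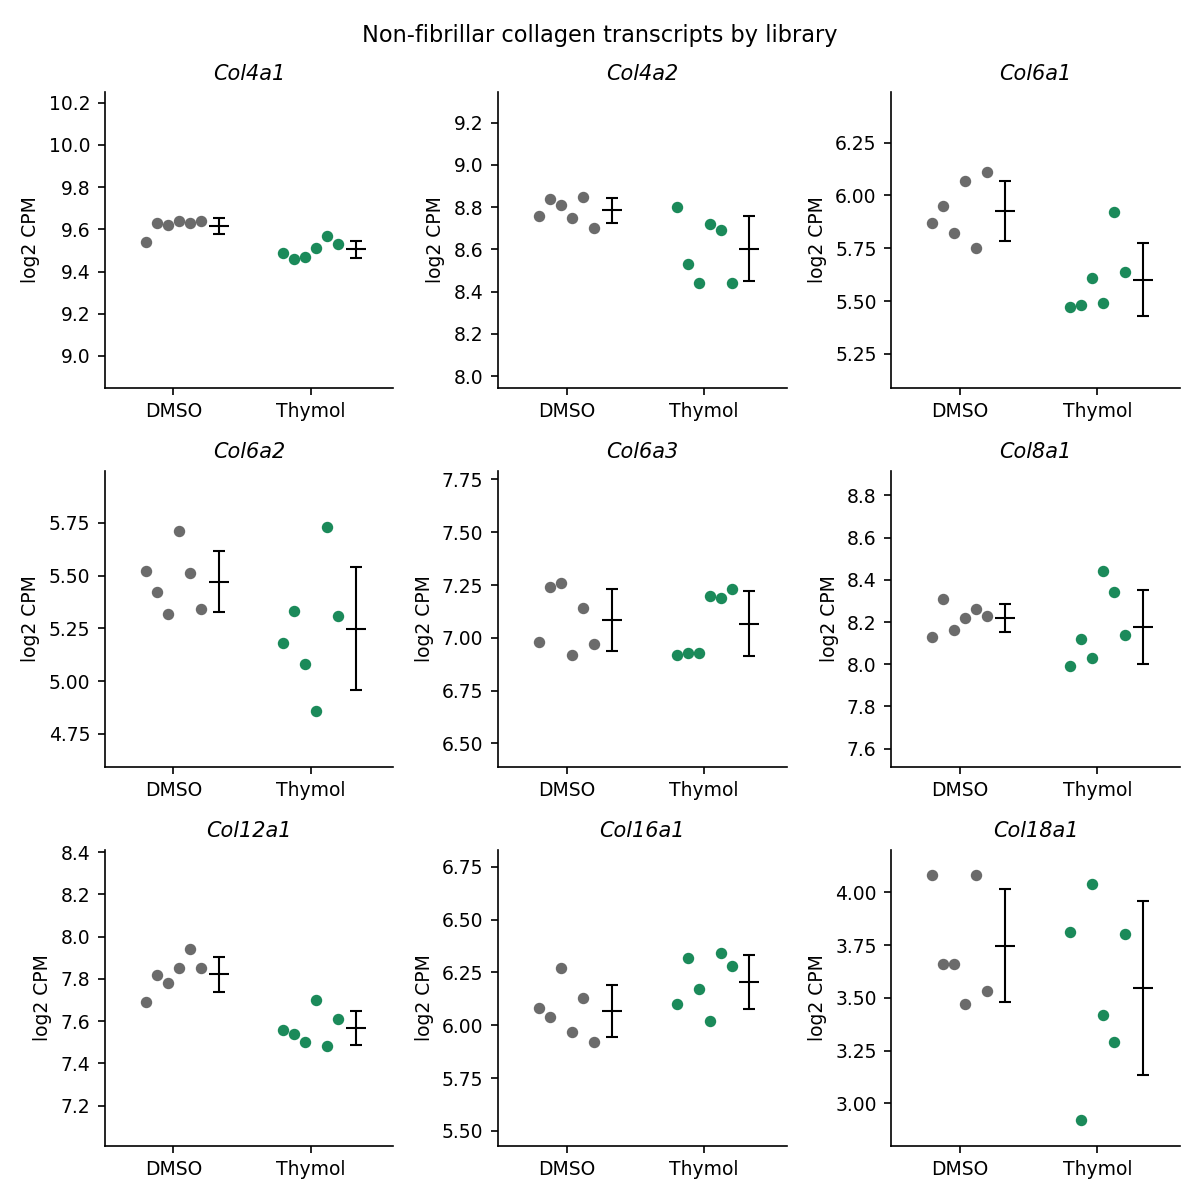
Level of each of the 9 non-fibrillar collagens (y axis, log2 CPM; every panel spans 1.4 units) in 6 DMSO (grey) and 6 thymol (green) libraries in the order of their numbers, with the mean and SD beside them. For Col12a1, Col4a1 and Col6a1, 5 of 6 thymol points lie below every DMSO point, whereas the groups of Col6a3 cover much the same range and 3 of 6 thymol points of Col18a1 lie below every DMSO point.

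Col12a1 was the single collagen of the 9 that changed with thymol at an adjusted p under 0.05. Its product is a large fibril-associated collagen that bridges fibres and other matrix proteins, and it is made by mesenchymal cells of tendon, skin and muscle sheaths. The gene spans chr9:79598991-79718831 on the minus strand, and its longest coding transcript has 66 exons. The DMSO libraries ran from 7.69 to 7.94 log2 CPM with a median of 7.83, and the thymol libraries from 7.48 to 7.70 with a median of 7.55. Thymol library 4, the highest of its group, stood just above DMSO library 1, and the other 5 thymol libraries lay below every DMSO library. Mean levels were 7.82 ± 0.08 and 7.57 ± 0.08 log2 CPM (SD, n = 6 each), from 1060 to 1762 reads a library. Col12a1 fell by 0.26 log2 units (SE 0.06, 95% interval -0.38 to -0.14), so its CPM level fell by 16.3% (limma, Benjamini-Hochberg adjusted p = 0.00784). The call held in all 12 fits that left out 1 library (adjusted p 0.0037 to 0.0384). It did not hold when limma was run without its mean-variance trend (adjusted p = 0.110), nor in the odd-numbered libraries alone (-0.29, adjusted p = 0.153) or the even-numbered ones alone (-0.22, adjusted p = 0.247), with 3 libraries a group.

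Across the family, 8 of the 9 genes had lower means with thymol, and Col16a1 alone had a higher one. The median log2 fold change of the 9 was -0.18, beside 0.0026 over all genes, of which 49.1% had lower means. The call rate was 1 of 9 lower and 0 of 9 higher, beside 1.57% lower, 0.654% higher and 2.22% in either direction over all genes tested. At an unadjusted p under 0.05, 4 of 9 were lower (Col4a1, Col4a2, Col6a1 and Col12a1), beside 6.44% of all genes. In 0 of 9 did all thymol libraries lie below all DMSO libraries, which held for 1.16% of all genes. Mean levels were thus lower for most of the family, while all differences were small, between -0.33 and 0.14 log2 units. The limma intervals of Col6a2 (-0.45 to 0.0075), Col6a3 (-0.17 to 0.13), Col8a1 (-0.17 to 0.08), Col16a1 (-0.03 to 0.31) and Col18a1 (-0.60 to 0.19) held 0. The direction of these genes was therefore not settled. The intervals of Col4a1, Col4a2, Col6a1 and Col12a1 lay below 0. The genes were chosen with earlier results of these data known, and the shared sign was not tested.

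**Figure D2:**
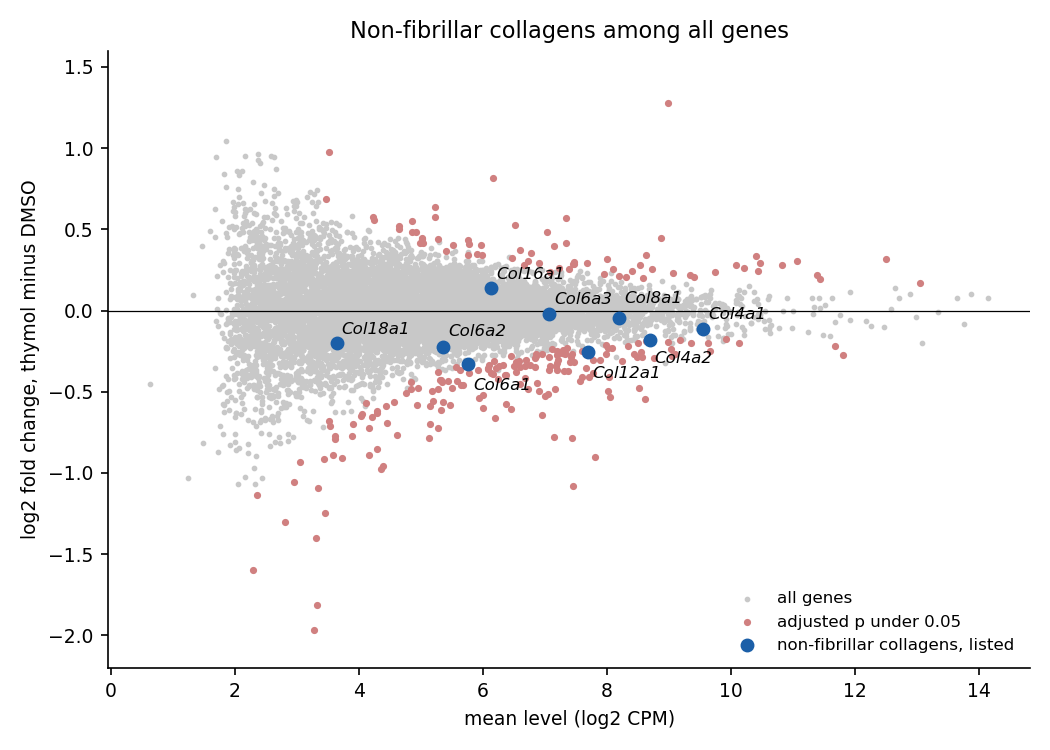
Log2 fold change (thymol minus DMSO, y axis) against mean level (log2 CPM, x axis) for 10697 genes in grey, with genes at an adjusted p under 0.05 in red and the 9 non-fibrillar collagens in blue. The collagens lie between -0.33 and 0.14, close to the zero line relative to the genes that changed most.

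The collagen IV chains showed small differences of the same sign, and neither passed the threshold. Col4a1 ran from 9.54 to 9.64 log2 CPM in DMSO (median 9.63) and from 9.46 to 9.57 in thymol (median 9.50). DMSO library 1 alone dipped into the thymol range, and 5 of 6 thymol libraries were below every DMSO library. Its log2 difference was -0.11 (SE 0.05, 95% interval -0.20 to -0.02; unadjusted p = 0.0197, adjusted p = 0.276, limma). Col4a2 ran from 8.70 to 8.85 log2 CPM in DMSO (median 8.79) and from 8.44 to 8.80 in thymol (median 8.61). The thymol libraries were more spread, with an SD of 0.15 beside 0.06 in DMSO, and 4 of 6 lay below every DMSO library. Its log2 difference was -0.18 (SE 0.06, adjusted p = 0.0863, limma), and it passed the threshold without thymol library 1 (-0.22, adjusted p = 0.0132) or without thymol library 4 (-0.20, adjusted p = 0.0493).

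None of the collagen VI chains passed the threshold, and their log2 differences were -0.33, -0.22 and -0.02. Col6a1, whose chain is needed in every collagen VI trimer, ran from 5.75 to 6.11 log2 CPM in DMSO (median 5.91) and from 5.47 to 5.92 in thymol (median 5.55). Thymol library 5, the most deeply read of the 12, was the only thymol library inside the DMSO range. Its log2 difference was -0.33 (SE 0.10, 95% interval -0.52 to -0.14; adjusted p = 0.0508, limma), just short of the threshold. It passed without thymol library 5 (-0.40, adjusted p = 0.0118) and without DMSO library 5 (-0.37, adjusted p = 0.0403). With 3 libraries a group, the difference was -0.15 (adjusted p = 0.870) in the odd-numbered libraries and -0.51 (adjusted p = 0.0303) in the even-numbered ones, each more than 1.5 times away from the value of all 12, and whether odd- and even-numbered libraries differ was not tested.

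Col6a2, the partner chain beside Col6a1 on chromosome 10, ran from 5.32 to 5.71 log2 CPM in DMSO (median 5.46) and from 4.86 to 5.73 in thymol (median 5.24). Thymol held both the lowest library (4) and the highest (5) of the 12, and the log2 difference of -0.22 did not pass (SE 0.12, adjusted p = 0.446, limma). It was -0.15 without thymol library 4 and -0.32 without thymol library 5 (adjusted p = 0.696 and 0.150). Col6a3, the longest collagen VI chain and the source of the fragment endotrophin, ran from 6.92 to 7.26 log2 CPM in DMSO and from 6.92 to 7.23 in thymol, with a median of 7.06 in both. Its log2 difference was -0.02 (SE 0.07, 95% interval -0.17 to 0.13, adjusted p = 0.970), with the opposite sign in 5 of the 12 fits that left out 1 library. Thymol libraries 1, 2 and 3 lay between 6.92 and 6.93 and libraries 4, 5 and 6 between 7.19 and 7.23, while DMSO libraries were found at both ends of that range.

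Levels of 2 chains in the same library were compared as log2 differences, which do not depend on how that library was scaled. The difference of Col6a3 over Col6a1 was 1.15 ± 0.26 in DMSO and 1.47 ± 0.17 in thymol (SD, n = 6), or 2.22-fold and 2.76-fold, with 4 of 6 thymol libraries above every DMSO library. Thymol minus DMSO was 0.31 (SE 0.13; exact two-sided permutation p = 0.0325, adjusted p = 0.130 over the 4 ratios compared), so it did not pass after adjustment. It was 0.04 in the odd-numbered and 0.59 in the even-numbered libraries, with 3 a group, where the smallest p an exact test allows is 0.1. Col6a2 over Col6a1 was -0.46 ± 0.19 in DMSO and -0.35 ± 0.19 in thymol (SD, n = 6; exact permutation p = 0.353, adjusted p = 0.353). Col6a3 over Col6a2 was 1.61 ± 0.26 and 1.82 ± 0.31 (exact permutation p = 0.245, adjusted p = 0.353). Col4a2 over Col4a1 was -0.83 ± 0.06 and -0.90 ± 0.15 (exact permutation p = 0.323, adjusted p = 0.353), or a CPM level of Col4a2 0.562 and 0.535 times that of Col4a1. None of the 4 ratios separated the groups.

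**Figure D3:**
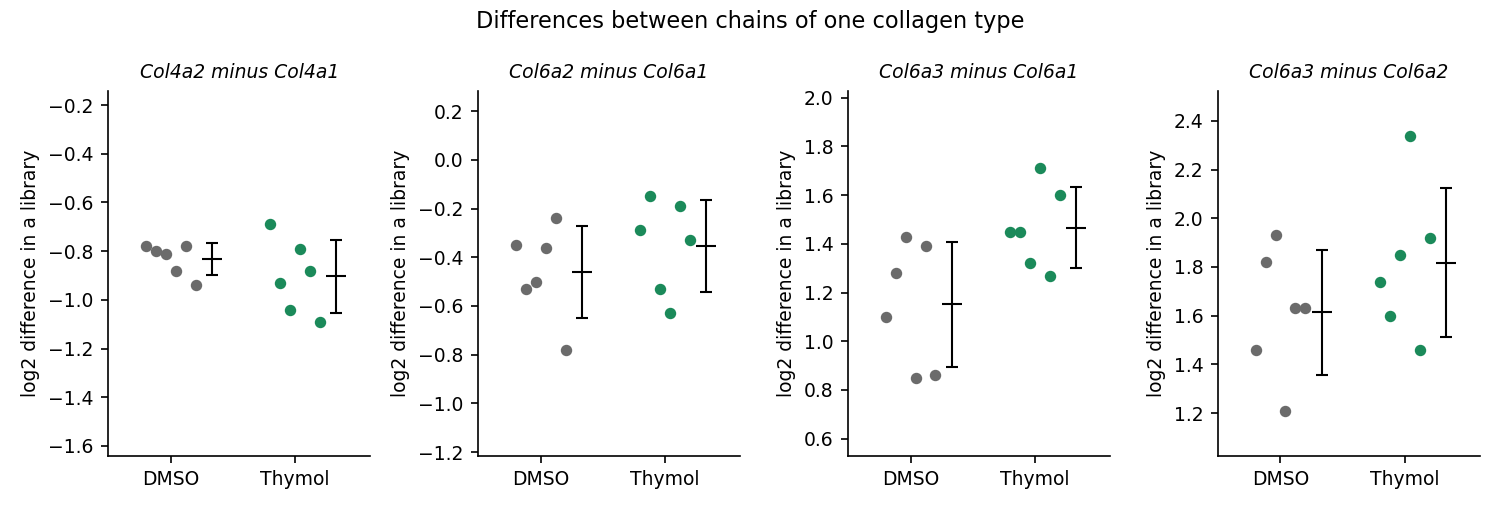
Log2 difference between 2 chains of a collagen type within each library (y axis), for 6 DMSO (grey) and 6 thymol (green) libraries with the mean and SD beside them; every panel spans 1.5 units. Col6a3 minus Col6a1 is above every DMSO library in 4 of 6 thymol libraries, and the other 3 differences overlap widely.

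Correlations between chains across libraries of a group did not pass a permutation test after adjustment, which does not show that the chains vary apart. Over the 12 libraries, each centred on its group mean, Col6a1 and Col6a2 had Pearson r = 0.58 (permutation p = 0.0849, adjusted p = 0.340 over 4 pairs) and Spearman rho = 0.34 (permutation p = 0.317, adjusted p = 0.990). Without the 2 libraries in which Col6a1 lay farthest from its median, r was 0.42. Col4a1 and Col4a2, which share a promoter, had r = 0.21 (permutation p = 0.564, adjusted p = 0.997) and rho = -0.01 (permutation p = 0.990). Their r was 0.12 without the 2 libraries farthest for Col4a1. For Col6a3, r was 0.00 with Col6a1 and -0.06 with Col6a2 (permutation p = 0.997 and 0.880), and rho was 0.06 and -0.16 (permutation p = 0.856 and 0.626). With Col6a1, r was -0.13 without the 2 libraries farthest for Col6a1. With Col6a2 it was -0.18 without the 2 farthest for Col6a2.

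The other network and fibril-associated collagens did not pass the threshold. Col8a1, a short-chain collagen of vessel walls and subendothelial matrix, lies on the minus strand of chromosome 16 (chr16:57624258-57754737). It ran from 8.13 to 8.31 log2 CPM in DMSO (median 8.23) and from 7.99 to 8.44 in thymol (median 8.13), so that thymol libraries stood on both sides of the DMSO range. Its log2 difference was -0.04 (SE 0.06, 95% interval -0.17 to 0.08, adjusted p = 0.878, limma), and it was -0.10 without thymol library 4 and -0.0053 without thymol library 1. Col16a1, whose product binds integrins and fibrillin-rich fibrils, lies on the plus strand of chromosome 4 (chr4:130047840-130099283). It ran from 5.92 to 6.27 log2 CPM in DMSO (median 6.06) and from 6.02 to 6.33 in thymol (median 6.22), with 3 of 6 thymol libraries above every DMSO library. Its log2 difference was 0.14 (SE 0.08, adjusted p = 0.578, limma). Col18a1 had the fewest reads, 43 to 125 a library, and ran from 3.47 to 4.08 log2 CPM in DMSO (median 3.66) and from 2.92 to 4.04 in thymol (median 3.61). Its log2 difference of -0.20 had a 95% interval of -0.60 to 0.19 (adjusted p = 0.785, limma). The interval holds both 0 and the size of the Col12a1 change, so neither could be told from the spread. Leaving out 1 library gave -0.30 to -0.08, the latter without thymol library 2, and a pseudocount of 10 CPM gave -0.11.

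Among the other collagens, Col3a1 and Col1a1 fell. Of 11 fibrillar collagens listed, 8 were analysed and 2 passed the threshold, both lower, beside 1.57% lower over all genes. The median log2 fold change of the 8 was -0.17. Col3a1, the main chain of reticular fibres, fell by 0.54 log2 units (SE 0.05, adjusted p = 4.42e-10, limma), from 8.88 ± 0.09 to 8.34 ± 0.10 log2 CPM (SD, n = 6). Col1a1, the major chain of collagen I, fell by 0.28 (SE 0.04, adjusted p = 2.90e-05). In both, all 6 thymol libraries lay below every DMSO library, unlike in any of the 9 non-fibrillar genes. Its partner chain Col1a2 had a log2 difference of -0.07 (adjusted p = 0.607), of the opposite sign under quantile normalization. Col5a1 and Col11a1, which set fibre diameter, had differences of -0.16 (adjusted p = 0.0877) and -0.27 (adjusted p = 0.0562). Col5a1 passed without thymol library 5 (adjusted p = 0.0310), and Col11a1 without DMSO library 1, thymol library 3 or thymol library 4 (adjusted p = 0.0329, 0.0199 and 0.0187). Of 23 further non-fibrillar collagens 3 were analysed and 0 passed by limma, with 1 at an unadjusted p under 0.05. These were Col4a5 (-0.13, adjusted p = 0.800), Col7a1 of anchoring fibrils (-0.24, adjusted p = 0.587) and the fibril-associated Col14a1 (-0.37, adjusted p = 0.410).

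**Figure D4:**
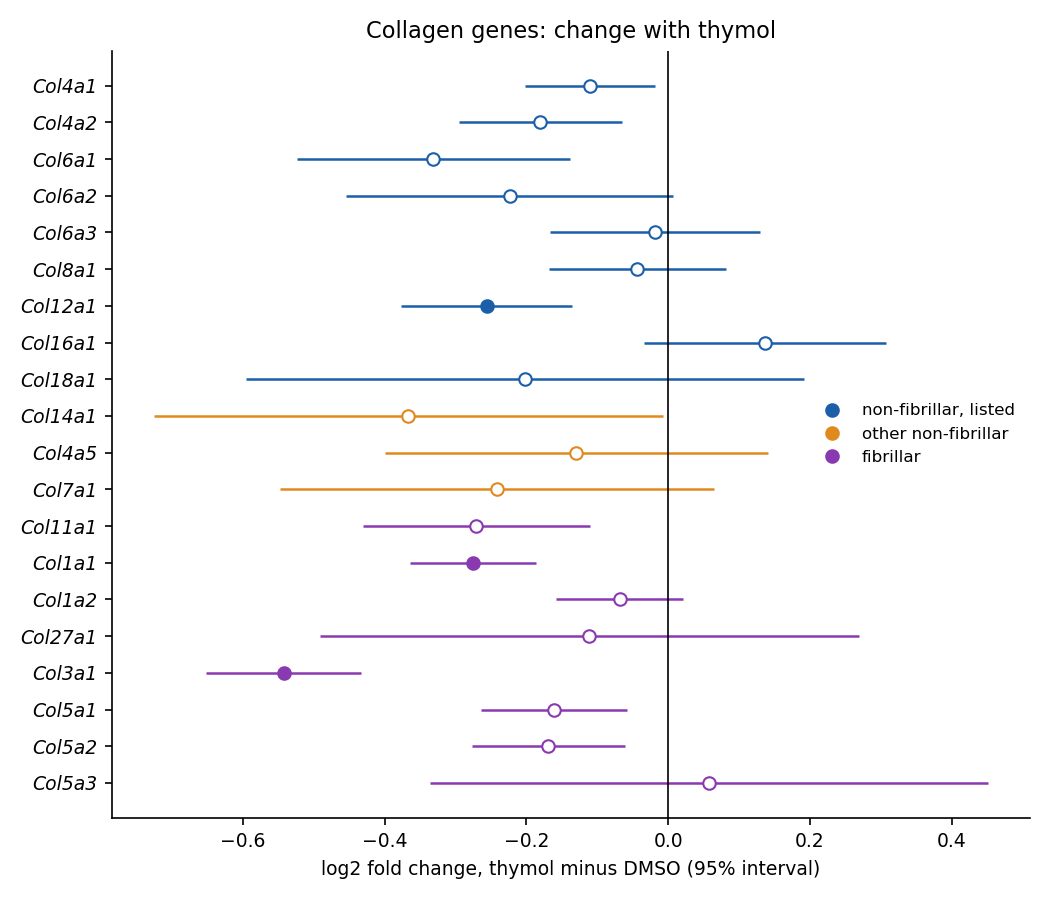
Log2 fold change (thymol minus DMSO, x axis) with its 95% interval from limma for 20 collagen genes: the 9 non-fibrillar genes described here in blue, 3 other non-fibrillar in orange and 8 fibrillar in purple. Filled points (Col12a1, Col1a1 and Col3a1) have an adjusted p under 0.05, and all 3 lie left of zero.

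Basement membranes join collagen IV to laminin networks through nidogen and perlecan. Of 33 listed partners 22 were analysed, and 2 fell while 0 rose, beside 1.57% and 0.654% of all genes. The median log2 fold change of the 22 was -0.12. Ntn4, a netrin that binds laminin and loosens its network, fell by 0.78 log2 units (SE 0.12, adjusted p = 1.87e-05, limma), from 5.53 ± 0.19 to 4.75 ± 0.28 log2 CPM (SD, n = 6), with all 6 thymol libraries below every DMSO library. Lamc1, the laminin gamma chain of most basement membranes, fell by 0.32 (SE 0.08, adjusted p = 0.0168), a call that held in 8 of the 12 fits that left out 1 library. Nid1, the nidogen link, had a log2 difference of -0.01 (adjusted p = 0.980), Hspg2, the perlecan core protein, -0.04 (adjusted p = 0.904), and Pxdn, the peroxidase that crosslinks collagen IV, -0.18 (adjusted p = 0.649). The analysed partners thus ranged from -0.78 to 0.64, and the direct links to collagen IV showed no difference past the threshold.

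Receptors and enzymes of collagen were given the same count. Of 18 receptors and uptake genes 15 were analysed, 1 fell and 1 rose, beside 1.57% and 0.654% of all genes. The median of the 15 was 0.0057, and the counts were not tested against those shares. Itga1, the integrin chain that binds collagen IV, fell by 0.39 log2 units (SE 0.11, adjusted p = 0.0352, limma), a call kept in 4 of 12 fits that left out 1 library. Lair1, an inhibitory collagen receptor of immune cells, rose by 0.33 (SE 0.09, adjusted p = 0.0240), kept in 9 of 12. The macrophage markers summed to 16720 to 20100 CPM in thymol and 16590 to 18400 CPM in DMSO, with 2 of 13 lower and 0 higher, and the part of macrophage number was not tested. Antxr2, a receptor for collagens IV and VI, had a difference of 0.09 (adjusted p = 0.639), Ddr1 -0.10 (adjusted p = 0.638) and Cspg4, which binds collagen VI, 0.21 (adjusted p = 0.743).

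For assembly and secretion, 29 of 31 listed genes were analysed, 1 fell and 0 rose, beside 1.57% and 0.654% of all genes. The median of the 29 was 0.0084, and the counts were not tested against those shares. Plod2, a lysyl hydroxylase that prepares crosslinks, fell by 0.30 log2 units (SE 0.08, adjusted p = 0.0208, limma), kept in 7 of 12 fits that left out 1 library. Serpinh1, the collagen chaperone of the endoplasmic reticulum, had a difference of -0.02 (adjusted p = 0.961), P4hb, a subunit of prolyl hydroxylase, 0.04 (adjusted p = 0.864), and Colgalt1, which adds galactose to hydroxylysine, 0.14 (adjusted p = 0.284). The general machinery of collagen folding thus showed no difference past the threshold besides Plod2.

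Among proteases that cut basement membrane and their inhibitors, 17 of 20 were analysed, 1 fell and 3 rose, beside 1.57% and 0.654% of all genes. The median of the 17 was 0.03. Mmp12, the macrophage elastase, rose by 0.45 log2 units (SE 0.07, adjusted p = 5.32e-06, limma), with 5 of 6 thymol libraries above every DMSO library. The lysosomal cathepsins Ctss (0.26, adjusted p = 0.000141) and Ctsb (0.19, adjusted p = 0.00421) also rose, with all 6 thymol libraries above every DMSO library. Timp3, a matrix-bound metalloprotease inhibitor, fell by 0.22 (SE 0.05, adjusted p = 0.00428). The gelatinases that cut collagen IV gave -0.07 for Mmp2 (adjusted p = 0.835) and -0.72 for Mmp9 (SE 0.23, adjusted p = 0.0891, 36 to 125 reads a library; -0.91 and adjusted p = 0.0121 without thymol library 1), and Ctsl, whose enzyme releases endostatin, gave -0.13 (adjusted p = 0.218). Mmp12 and Ctss are known from macrophages, and the part of macrophage number in their rise was not tested. The 13 macrophage markers summed to 16590 to 18400 CPM in DMSO and 16720 to 20100 CPM in thymol, with 2 genes lower and 0 higher at the same threshold. Among all named genes outside the family that passed, Col3a1 and Ntn4 kept their calls in limma without the mean-variance trend, and the other 9 did not.

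**Figure D5:**
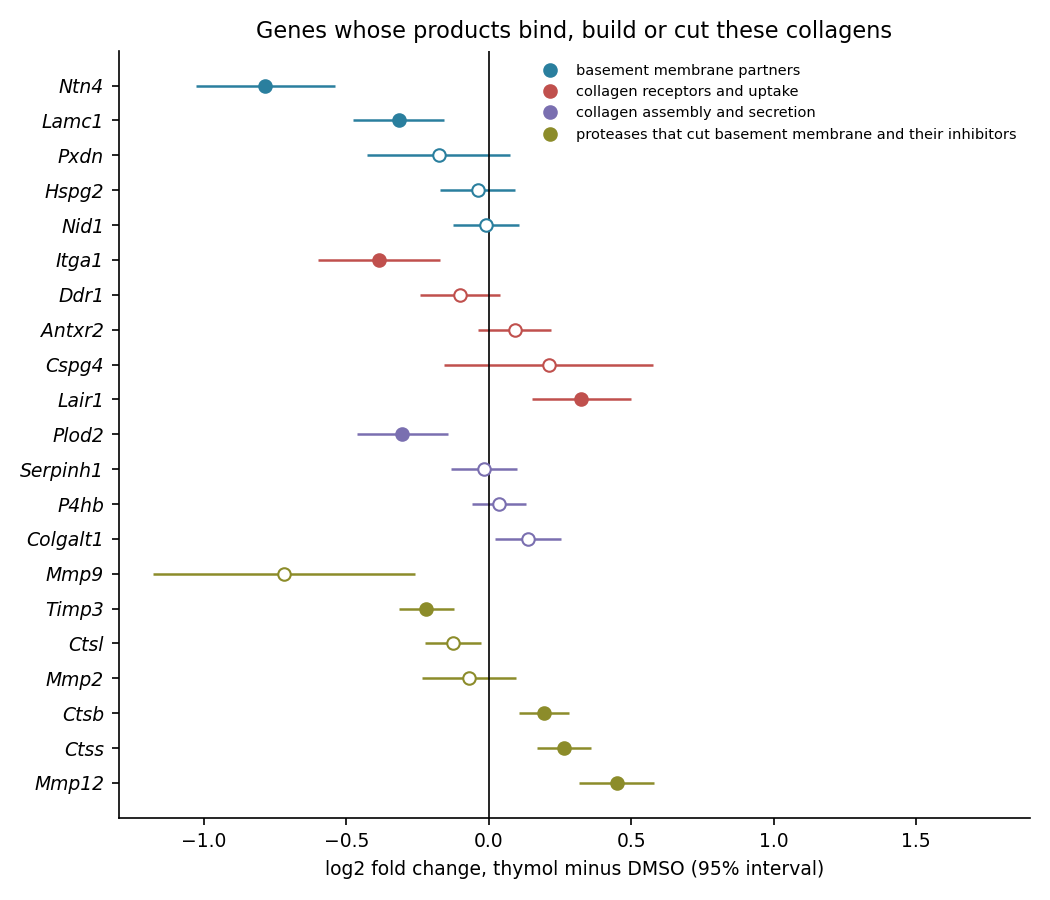
Log2 fold change (thymol minus DMSO, x axis) with its 95% interval from limma for genes whose products bind, build or cut these collagens, grouped by colour. Filled points have an adjusted p under 0.05; Ntn4 (-0.78) lies farthest left among them and Mmp12 (0.45) farthest right.

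The genes whose levels varied most like the mean of the 9 collagens over the 12 libraries, after centring each group, were Map7d1 (Pearson r = 0.94), Ndufb2 (0.88), Ptpn6 (0.87), Calu (0.84) and Elk4 (0.83). Lias (-0.94), Klc3 (-0.91) and Knop1 (-0.90) varied most against it. These were picked as extremes of 10697 genes over 12 libraries that differ in depth, and stand as a description.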

How the data were processed

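Thymol and DMSO MAF libraries (6 each, QuantSeq 3′ mRNA) were compared. The authors aligned reads to GRCm38 with STAR 2.5.3, counted them with HTSeq 0.6.1, dropped unannotated genes and those short of 30 reads in 6 samples or more, and applied TMM scaling. The deposited values are log2 CPM with a prior count, for 10697 genes. Because the values are on a log2 scale, the same design as the authors' was fitted with limma 3.58.1 (R 4.3.3, mean-variance trend, two-sided, Benjamini-Hochberg over all genes, threshold 0.05). Whole reads were recovered from the steps of the low values: below 200 reads, 100% of the values were whole to within 0.02 of a read, with a prior of 1.96 reads, for totals of 5435985 to 9049796 over the retained genes. Chain ratios were tested by exact permutation over all 924 relabellings (smallest possible p 0.00216), and correlations with 100000 permutations. The intervals are at 95%. Scripts were tested on simulated data.

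Collagens, gene lists and markers were chosen with earlier results of these data known. Named genes were every listed gene past the threshold, plus up to 3 per list by their known role, picked after values were seen, and the 5 genes most like and 3 most unlike the family mean. Alternatives were 12 fits leaving out 1 library and 10 other settings. The labels do not say whether the library numbers pair the samples, and the main fit used no pairing. Same-number correlations of -0.05 to 0.27 cannot settle this. Library names run through all thymol and then all DMSO libraries, odd numbers before even ones in each group. Treatment and that order therefore cannot be told apart, and what the order marks is not given. No libraries of a group agreed within sampling noise (chi-square per gene of at least 4.18). Gene models were from GENCODE and promoters from RefSeq.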

Additional observations from a re-analysis of the deposited data

Results flagged for a closer look

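Of 86 groups of 6 libraries examined, 6 held a library that stood apart from the other 5 by Dixon's criterion, where chance flags about 1 in 20 groups, or 4.3 here. Col4a1 was low in DMSO library 1, at 9.54 log2 CPM. The groups overlapped only through this library and thymol library 5, at 9.57 log2 CPM. Col5a1 was high in thymol library 5, at 9.09 log2 CPM, and the same library had the most recovered reads, 9049796. Itga1 was high in thymol library 4, at 6.15 log2 CPM. Colgalt1 was high in DMSO library 6, at 8.41 log2 CPM, and low in thymol library 1, at 8.16 log2 CPM.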

How the results depend on the processing

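Of 938 values recomputed under other settings, 838 kept their direction and their side of the threshold or lay near the reported value. The count of non-fibrillar collagens past the threshold was 1 as reported. It was 2 (Col12a1 and Col6a1) under quantile normalization, with libraries centred on their median, with a pseudocount of 10 CPM, with genes of a mean above 5 log2 CPM, and with odd or even number as a term. It was 0 without the mean-variance trend and 0 in the odd-numbered libraries, 1 in the even-numbered libraries, where the gene was Col6a1, and between 1 and 2 when 1 library was left out. With the replicate block in limma it was 3: Col12a1 (adjusted p = 0.00404), Col4a2 (adjusted p = 0.0366) and Col6a1 (adjusted p = 0.0407). In the labels same-numbered libraries share only a number, and whether the numbers mark pairs is not known. Of the 6 thymol libraries, 2 correlated best with the DMSO library of their own number. With limma-voom on the recovered reads the count of non-fibrillar collagens was 1. Over all genes the count was 238, with 57 without the trend, 70 in the odd-numbered libraries, 332 with the replicate block and 172 to 270 when 1 library was left out. Col11a1 passed with libraries centred on their median, a pseudocount of 10 CPM, a mean above 5 log2 CPM and the odd or even term (adjusted p 0.0431 to 0.0474), and with the replicate block (adjusted p = 0.0198), as did Col5a1 (adjusted p = 0.0354). Without the trend the calls of Col1a1, Lamc1, Lair1, Itga1, Plod2, Mmp12, Ctss, Ctsb and Timp3 were also lost. Those of Col1a1, Lamc1, Lair1, Plod2, Ctsb and Timp3 were lost in the odd-numbered libraries, and those of Lamc1, Lair1, Itga1, Plod2 and Ctsb in the even-numbered ones. The Col6a3 minus Col6a1 difference of 0.31 was 0.0377 in the odd-numbered and 0.588 in the even-numbered libraries. Values near 0 changed sign: Col1a2 to 0.0223 under quantile normalization, Nid1 to 0.0041 and Mmp2 to 0.0527 in the odd-numbered libraries, and Col6a3 to 0.0786 and Serpinh1 to 0.0132 in the even-numbered ones. Leaving out 1 library gave -0.0515 to 0.0162 for Col6a3, -0.0819 to 0.0028 for Hspg2, -0.0359 to 0.0346 for Nid1 and -0.0589 to 0.0187 for Serpinh1. The cause of these differences was not tested. The planned ratio of Col18a1 to Col15a1 was not run, since Col15a1 was not analysed here. Col18a1 and Mmp9 had few reads, at 36 to 125 a library, and the part of depth in their spread was not tested.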
